A study of Mus musculus with 20 samples.

Results

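The levels of 9 genes that mark adventitial fibroblasts were followed in sorted stromal cells of mouse bone marrow. These were chosen by name, with earlier results of these libraries known: Pi16, Clec3b, Mfap5, Dpt, Efemp1, Anxa3, Pcolce2, Tnxb and Opcml. Counts of the 9 set beside shares of all genes are therefore a description and no independent evidence. All 9 of 9 symbols were found among the 24347 in each RNA table. RNA was sequenced from 12 libraries, 3 in each of 4 groups, prepared from crushed and collagenase-digested long bones of C57BL/6 mice. CAR cells (CXCL12-abundant reticular cells, the perivascular stroma that feeds blood progenitors) were sorted as PDGFRα+ and Sca1- cells lacking CD45, CD31 and lineage markers. PaS cells were sorted with the same gates except that they were Sca1+. Each population was taken from Ebf1+/+;Prx1+/cre mice (wt) and from mice with the genotype Ebf1fl/fl;Prx1+/cre (ko). All 4 groups therefore carry the Prx1-cre allele, whose promoter is active in limb bud mesenchyme, and the ko groups have floxed Ebf1 besides. Ebf1 encodes a DNA-binding factor known from early B lymphocytes and marrow stroma. Age, and whether a library came from 1 animal or a pool, are not given, so p-values measure the spread between these libraries only.

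Adventitial fibroblasts sit in the outer coat of vessels and in the fascia of many organs, where they are thought to be a reserve of less specialised fibroblasts that express Sca1. They build a loose matrix of collagen fibrils and elastic microfibrils, and most of these genes encode parts of it. Mfap5 encodes a microfibril-associated glycoprotein that binds fibrillins, and Efemp1 encodes a fibulin. Dpt encodes dermatopontin, which binds decorin and speeds collagen fibril assembly. Tnxb encodes tenascin-X, a large glycoprotein that links collagen fibrils. Pcolce2 encodes an enhancer of the proteinase that trims procollagen. Clec3b encodes tetranectin, a secreted lectin that binds plasminogen, and Pi16 encodes a peptidase inhibitor of the CAP family. Anxa3 and Opcml differ in kind from these: annexin A3 is mainly a cytoplasmic protein that binds membrane lipids and is also abundant in neutrophils, and OPCML is a lipid-anchored adhesion molecule of the cell surface, best known from neurons.

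RefSeq windows around a transcript start were found for 6 of the 9 genes (Pi16, Dpt, Efemp1, Pcolce2, Tnxb and Opcml; GRCm38.p6, the assembly behind mm10). The upstream stretches of 4 are shown here. Pi16, Efemp1 and Pcolce2 were lower in PaS ko libraries, and Dpt was not. Each lies on the plus strand and ends at the base before the gene's first annotated base, and capitals mark motif matches. Pi16 spans chr17:29318796-29328903, Efemp1 chr11:28853154-28926743, Pcolce2 chr9:95637628-95695551 and Dpt chr1:164796663-164824274.
Pi16, chr17:29318632-29318795: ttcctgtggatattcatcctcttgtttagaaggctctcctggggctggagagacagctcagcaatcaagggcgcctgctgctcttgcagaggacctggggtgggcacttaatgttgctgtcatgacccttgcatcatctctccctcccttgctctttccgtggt
Efemp1, chr11:28852955-28853153: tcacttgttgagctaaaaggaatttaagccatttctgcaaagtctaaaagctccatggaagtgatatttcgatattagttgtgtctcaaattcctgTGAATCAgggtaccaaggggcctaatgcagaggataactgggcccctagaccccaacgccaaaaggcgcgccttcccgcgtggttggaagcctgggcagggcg
Pcolce2, chr9:95637378-95637627: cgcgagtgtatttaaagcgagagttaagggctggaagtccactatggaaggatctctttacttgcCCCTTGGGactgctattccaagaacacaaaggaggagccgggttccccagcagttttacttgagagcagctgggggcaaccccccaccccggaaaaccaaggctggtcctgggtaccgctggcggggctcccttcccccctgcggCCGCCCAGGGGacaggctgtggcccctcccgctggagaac
Dpt, chr1:164796413-164796662: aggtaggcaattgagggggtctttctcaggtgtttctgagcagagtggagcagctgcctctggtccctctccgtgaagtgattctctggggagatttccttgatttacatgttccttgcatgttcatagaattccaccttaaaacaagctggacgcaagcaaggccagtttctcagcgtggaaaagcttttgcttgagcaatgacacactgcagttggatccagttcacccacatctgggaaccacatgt
In Efemp1 the capitals are an AP-1 site (TGANTCA). In Pcolce2 the first is a pair of EBF half-sites (CCCNNGGG), and the second is a GC box (GGGCGG, read here on the minus strand) that overlaps another such pair. Both strands of the windows of 300 bases were searched. The CCCNNGGG pair was found in 1 of the 6 windows and in 13.7% of all 32851 windows, and TGANTCA in 2 of 6 (Efemp1 and Tnxb) and 7.81%. GGGCGG was found in 2 of 6 (Pcolce2 and Efemp1) and 35.7%, and TATAAA in 1 of 6, Dpt, and 13.6%. The full EBF site, a palindrome that extends this pair, was in 0 of 6 windows and 0.904% of all, and the TEAD site GGAATG in 0 of 6 and 14.7%. The windows of Tnxb (chr17:34670285-34670584) and Opcml (chr9:27791049-27791348) lie inside the genes, which begin at bases 34660453 and 27790716. The Tnxb match is therefore not upstream of the gene. The TATAAA of Dpt begins at base 13 after the transcript start. These are matches of letters and not measured binding.

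Values are deposited FPKM (fragments scaled to transcript length and library size), a level per length that allows genes to be compared with each other. Libraries summed to 491801 to 526074 FPKM, and their read depth is unknown. In PaS wt replicate 1 the share of genes listed at 0 was 24.6%, and in the other 11 libraries it was 33.3% to 37.0%. The sorts matched their labels in Ly6a, which encodes the sorted antigen Sca1, and in Cxcl12. Ly6a had 1963 ± 218 FPKM in PaS wt and 4.66 ± 0.815 in CAR wt libraries (SD, n = 3 here and throughout). Cxcl12 had 4277 ± 84.8 and 13251 ± 377. Ebf1 had 48.1 ± 1.10 FPKM in CAR wt, 57.5 ± 1.99 in CAR ko, 55.9 ± 5.89 in PaS wt and 62.5 ± 2.18 in PaS ko libraries. It was thus not lower in ko libraries, and in CAR cells it was called higher (log2 fold change 0.25, adjusted p = 0.040), a call that was lost without any single CAR library (0.065 to 0.13). A whole-gene FPKM also counts exons that a deletion leaves in place, and it does not check the genotype labels. Blood cells were gated out, yet transcripts of 15 neutrophil markers were present. Their share of the summed FPKM was highest in PaS wt libraries (4.60% to 4.82%), then CAR wt (2.04% to 2.40%), PaS ko (1.41% to 1.45%) and CAR ko (0.901% to 1.04%).

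The first comparison sets the 2 wt populations side by side. All 9 genes were higher in PaS than in CAR cells, and most of them were scarce in CAR cells. All 9 were called, where 22.7% of the 12938 genes tested were called higher in PaS wt (limma on log2(FPKM + 1), Benjamini-Hochberg adjusted p under 0.05). Opcml passed the filter of 1 FPKM in 3 libraries only through PaS libraries and had to differ, while the other 8 would have passed on the CAR libraries alone. The median log2 fold change of the 9 was 6.29, against 0.00 for all genes tested. Groups of libraries did not overlap for any of the 9, and PaS lay above CAR without overlap for 26.7% of all genes. As the 9 were chosen with earlier results known, these counts only describe them.

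Mfap5 was the most abundant of these genes in PaS wt cells, with 671, 593 and 732 FPKM. In CAR wt libraries it had 6.11, 5.93 and 7.14 FPKM, so no library of either sort came near the other (log2 fold change 6.49, SE 0.11, adjusted p = 5.9e-16). Pcolce2 had 347, 374 and 369 FPKM in PaS wt and 3.60, 3.58 and 3.76 in CAR wt (6.29, SE 0.08, adjusted p = 3.1e-17). Both genes were thus strongly expressed in each PaS library and at a few FPKM in each CAR library.
Clec3b had 329.7, 291 and 365 FPKM in PaS wt, and 2 of the 3 CAR wt libraries were under 1 FPKM at 0.416, 0.576 and 1.19 (7.60, SE 0.19, adjusted p = 4.1e-14). Dpt had 298, 292 and 309 FPKM in PaS wt against 1.61, 1.41 and 1.24 in CAR wt (6.96, SE 0.09, adjusted p = 6.2e-17). Pi16, the gene most used to name this fibroblast state, had 269, 302 and 269 FPKM in PaS wt and 1.56, 3.28 and 2.83 in CAR wt (6.33, SE 0.16, adjusted p = 5.6e-14). These 3 genes were at a like level in PaS wt libraries and at the lower end of detection in CAR wt libraries.
Tnxb was about an order of magnitude lower than these in PaS wt, at 27.1, 27.2 and 26.4 FPKM, and all 3 CAR wt libraries were under 1 FPKM, at 0.315, 0.287 and 0.179 (4.47, SE 0.12, adjusted p = 6.5e-14). The pseudocount of 1 FPKM compresses such low values.

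Efemp1 and Anxa3 were the exceptions, being well expressed by both populations. Efemp1 had 239, 261 and 226 FPKM in PaS wt and 76.8, 73.7 and 71.6 in CAR wt libraries, a ratio of means of 3.27 (log2 fold change 1.69, SE 0.07, adjusted p = 1.5e-11). Anxa3 had 128, 135 and 132 FPKM in PaS wt and 33.1, 33.7 and 31.9 in CAR wt, a ratio of 3.99 (1.96, SE 0.07, adjusted p = 1.4e-12). Together they made up 87.7% of the summed FPKM of the 9 genes in CAR wt and 16.0% in PaS wt libraries. Neutrophil markers were also higher in PaS wt than in CAR wt for 10 of 15 and lower for 4. In PaS ko libraries, whose neutrophil share was smaller than that of CAR wt libraries, Anxa3 had 79.9 to 86.1 FPKM. Those groups differ in both genotype and population, and the part of neutrophils in the Anxa3 value was not tested. Opcml was at the edge of detection: it was listed at 0 in all 3 CAR wt libraries and had 0.973, 0.591 and 1.52 FPKM in PaS wt.

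**Figure D1:**
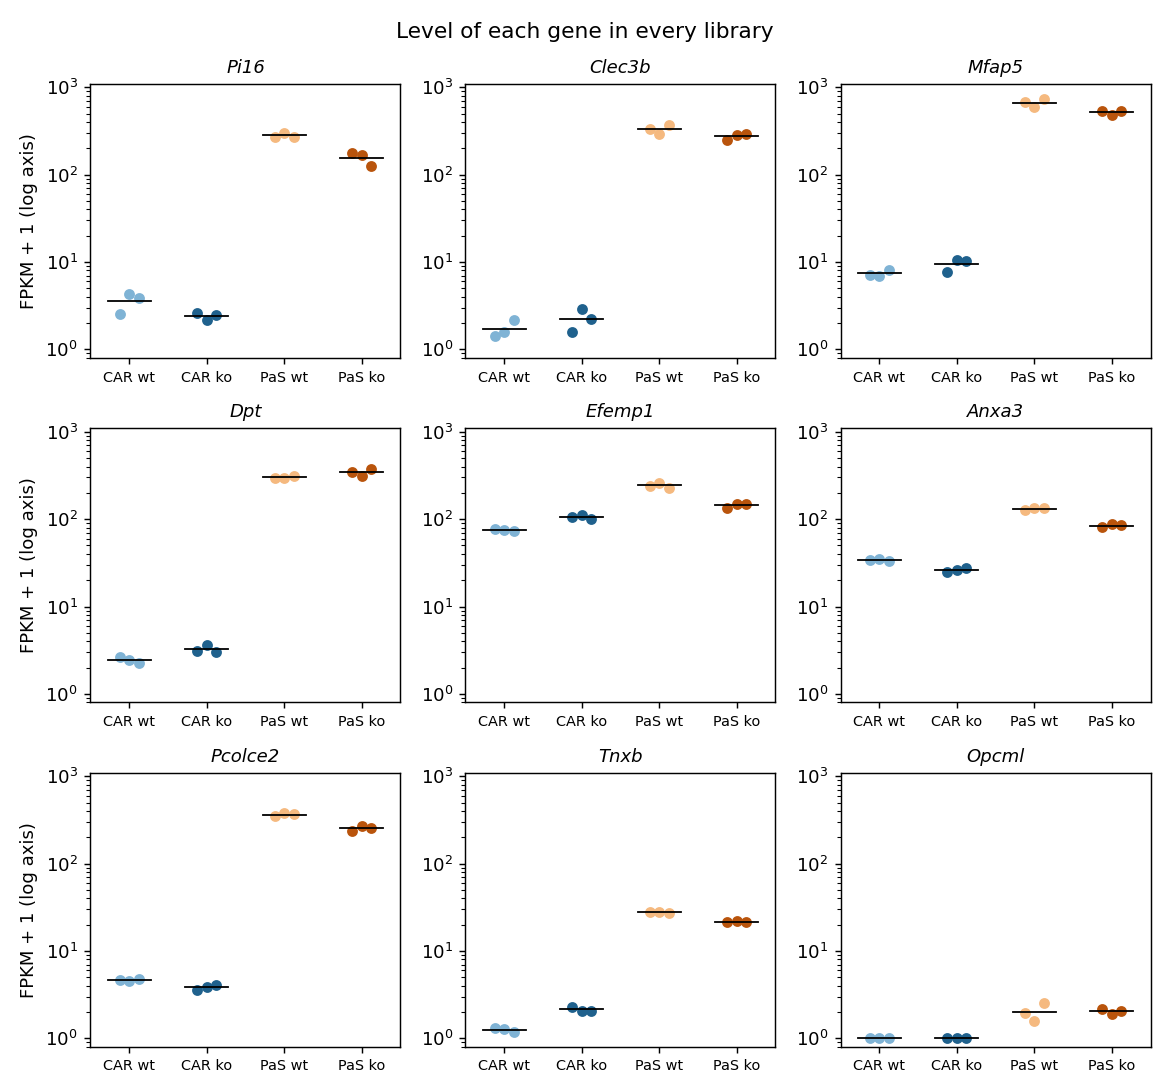
Level of each of the 9 genes in all 12 libraries, as FPKM + 1 on a log axis, with 1 point per library (replicates 1 to 3 from left to right) and a line at the mean of each group. PaS libraries lie above CAR libraries in every panel, by a ratio of means of 3.27 and 3.99 for Efemp1 and Anxa3 in wt and far more for Pi16, Clec3b, Mfap5, Dpt and Pcolce2.

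The mean CAR wt level was 0.221% of the PaS wt level for Clec3b, 0.475% for Dpt, 0.913% for Pi16, 0.962% for Mfap5, 0.968% for Tnxb and 1.00% for Pcolce2. For Ly6a, the gene of the sorted antigen, it was 0.238%, and for Cd34, another progenitor marker of PaS cells, 2.13%. Efemp1 at 30.6% and Anxa3 at 25.1% were far from this range, closer to Pdgfra, the receptor used to sort both populations, at 40.6%. Whether the traces in CAR libraries come from a few PaS cells in the sort was not tested. Markers of other cell types differed too, at an unadjusted p under 0.05 by limma. Higher in PaS wt were 9 of 10 monocyte and macrophage, 9 of 10 endothelial and 7 of 10 tendon and joint markers. Lower were 10 of 10 osteoblast, 7 of 9 tested chondrocyte and 7 of 10 erythroid markers. Of the tendon and joint and of the chondrocyte markers, 1 each went the other way. Of 9 tested pericyte and smooth muscle markers 4 were higher and 3 lower. The share of all genes at this unadjusted threshold was not computed. At an adjusted p under 0.05 by limma, 5590 of the 12938 genes tested were called in this comparison, in either direction. Their part in the values of the 9 genes was not tested.

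In ko cells all 9 genes were again called higher in PaS, where 19.8% of all genes were called higher in PaS ko than in CAR ko. Opcml, which passed the filter only through PaS libraries, had to be among them. PaS ko libraries lay above CAR ko libraries without overlap for all 9 and for 25.1% of all genes. Clec3b had the largest log2 fold change among them at 6.98 and Efemp1 the smallest at 0.44 (SE 0.07, adjusted p = 1.1e-04), where the ratio of means was 1.36. Tnxb stood at 3.34 (SE 0.12, adjusted p = 2.9e-12).

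**Figure D2:**
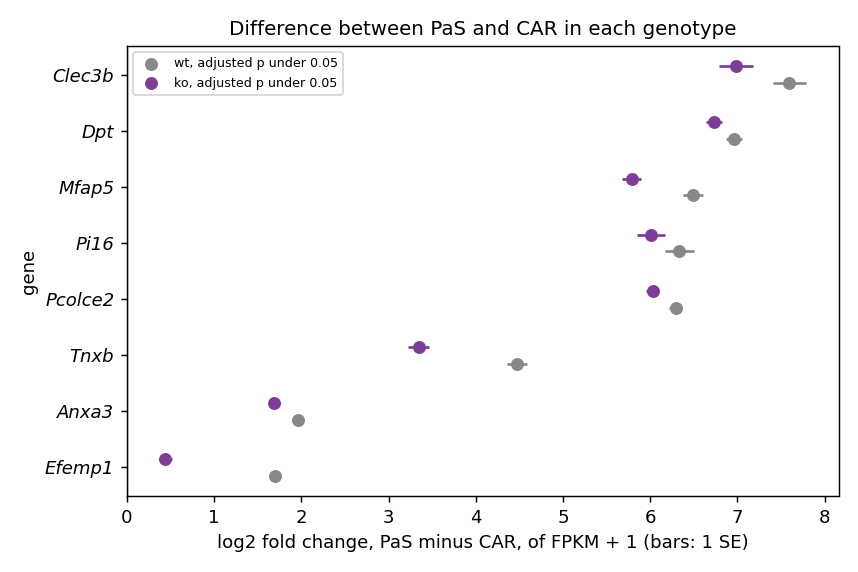
Log2 fold change between PaS and CAR cells of 8 genes, on the log2(FPKM + 1) scale, in wt (grey) and ko (purple) libraries, with bars of 1 SE. Opcml is left out because it is listed at 0 in all CAR wt libraries; Efemp1 moves from 1.69 in wt to 0.44 in ko.

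The order of levels in PaS cells was computed in each genotype. In PaS wt it ran from Mfap5 (mean 665 FPKM) through Pcolce2 (364), Clec3b (329), Dpt (299), Pi16 (279.9), Efemp1 (242), Anxa3 (131) and Tnxb (26.9) to Opcml (1.03). Neighbours from Pcolce2 to Pi16 overlapped in their libraries and were not separated, while all other neighbours were. In PaS ko Dpt came next after Mfap5, at 343 FPKM against 516, and Pcolce2 came after Clec3b, though these 2 overlapped. Measured against all genes tested, 7 of the 9 lay above at least 95.4% of genes in PaS wt libraries. Tnxb lay above 77.3% and Opcml above 5.77%.

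The second comparison asks what changed in PaS cells when Ebf1 was targeted. Pi16, Efemp1, Anxa3 and Pcolce2 were lower in PaS ko libraries, and the abundant Dpt, Clec3b and Mfap5 were not called. Of the 9 genes, 4 fell and 0 rose by limma at an adjusted p under 0.05, where 4.03% of all genes were called lower and 3.41% higher. At an unadjusted p under 0.05 by limma, 6 fell and 0 rose. The share of all genes at that looser threshold was not computed, so these 6 cannot be set beside the 4.03%. The median log2 fold change of the 9 was -0.36, against 0.00 for all genes. For 7 of 9 every ko library lay below every wt library, which held for 11.9% of all genes, and for 1 of 9, Dpt, every ko library lay above, which held for 11.5%. In bulk RNA, fewer cells of a type and less RNA per cell cannot be told apart.

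Pi16 had 269, 302 and 269 FPKM in wt and 174, 168 and 126 in ko libraries, and its groups were far apart (log2 fold change -0.85, SE 0.16, adjusted p = 0.0035). Its mean dropped by 44.3%. The lowest ko library, replicate 3, widened its ko spread, and without it the log2 fold change was -0.71 (adjusted p = 0.024).
Efemp1 had 239, 261 and 226 FPKM in wt and 133, 148 and 147 in ko libraries (-0.76, SE 0.07, adjusted p = 3.7e-06). Anxa3 went from 128, 135 and 132 FPKM to 79.9, 86.1 and 84.3 (-0.65, SE 0.07, adjusted p = 1.2e-05). Pcolce2 went from 347, 374 and 369 FPKM to 238, 266 and 252 (-0.53, SE 0.08, adjusted p = 2.8e-04). In these 3 genes replicates differed little, with a coefficient of variation of 2.70% to 7.19% in each PaS group.

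Mfap5, Tnxb and Clec3b had separate groups too, but their tests over all genes missed the threshold. Mfap5 had 671, 593 and 732 FPKM in wt and 528, 483 and 537 in ko (log2 fold change -0.36, SE 0.11, adjusted p = 0.066). Tnxb had the tightest replicates of the 9 in PaS cells, 27.1, 27.2 and 26.4 FPKM in wt and 20.4, 21.0 and 20.7 in ko (-0.36, SE 0.12, adjusted p = 0.082). When only the 2 PaS groups were fitted both were called, Mfap5 at an adjusted p of 0.011 and Tnxb at 0.022. Clec3b had 329.7, 291 and 365 FPKM in wt and 247, 282 and 289 in ko, groups that nearly touched (-0.27, SE 0.19, adjusted p = 0.51). With 3 libraries a group, the two-sided exact permutation test has a smallest possible p of 0.1, which it gave for each of the 7 genes with lower ko libraries.

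Dpt went the other way. It had 298, 292 and 309 FPKM in wt and 345, 314 and 371 in ko libraries, so that every ko library was higher by a little, without a call (log2 fold change 0.19, SE 0.09, adjusted p = 0.26). Opcml had 1.14, 0.921 and 1.05 FPKM in ko libraries, inside the range of the wt libraries (0.03, SE 0.18, adjusted p = 0.96).

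**Figure D3:**
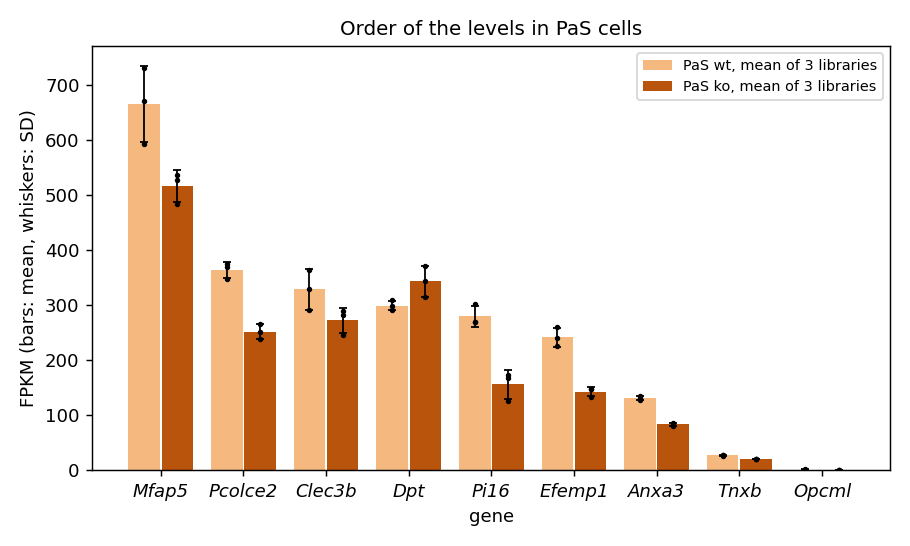
FPKM of the 9 genes in PaS cells, ordered by the PaS wt mean, with bars at the mean of 3 libraries, whiskers of 1 SD and 1 point per library. Dpt is the one abundant gene whose ko bar (343 FPKM) is above its wt bar (299 FPKM).

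Several measures moved beside these differences. In PaS cells 14 of 15 tested neutrophil markers were called lower in ko libraries, at a median of -1.62 on the log2 scale, and Anxa3 is a gene that neutrophils also express. Of 4 sort and progenitor markers of PaS cells, Pdgfra fell by 0.36 on the log2 scale and Cd34 fell by 0.50, and Ly6a had -0.33 (adjusted p = 0.26). Summed over the 4, PaS wt libraries had 2523 to 2999 FPKM and PaS ko libraries 2106 to 2187 FPKM. Of 10 tendon and joint markers 7 rose and 1 fell, of 9 tested chondrocyte markers 8 rose, and of 10 osteoblast markers 7 rose. Of 10 monocyte and macrophage markers 6 rose and 2 fell (Lyz2 and Cd14), of 10 erythroid markers 4 rose, and of 9 tested pericyte and smooth muscle markers 3 rose. Of 10 CAR cell markers 2 fell (Cxcl14 and Cbln1), and of 9 tested pan-leukocyte and lymphoid markers 1 rose and 2 fell. Of 10 endothelial markers only Tek was called, with a mean of 21.0 FPKM in PaS wt and 8.31 in PaS ko (-1.25, adjusted p = 1.4e-04 by limma). The part of these cell types in the values above was not tested.

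The third comparison put the same question to CAR cells, where most of the 9 genes are scarce. Efemp1, Tnxb and Dpt were higher in CAR ko libraries, and Anxa3, Pcolce2 and Pi16 were lower. That is 3 of 9 in each direction, where 6.51% of all genes were called higher and 5.74% lower. Every ko library lay above every wt library for 3 of 9 genes and below for 2 of 9, against 16.0% and 14.0% of all genes.

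Efemp1 was the only one of them that was abundant and higher: it had 76.8, 73.7 and 71.6 FPKM in wt and 105, 111 and 98.7 in ko libraries. The log2 fold change was 0.49 (SE 0.07, adjusted p = 2.2e-04), a rise in the mean of 41.6%. Tnxb had 0.315, 0.287 and 0.179 FPKM in wt and 1.31, 1.06 and 1.06 in ko libraries (0.76, SE 0.12, adjusted p = 4.4e-04). All of its wt libraries were under 1 FPKM and all ko libraries over it, yet its ko mean was still 5.51% of that in PaS ko cells. Dpt had 1.61, 1.41 and 1.24 FPKM in wt and 2.12, 2.59 and 2.03 in ko (0.42, SE 0.09, adjusted p = 0.0065). The Dpt call was lost with only the CAR groups fitted (adjusted p = 0.13). With a pseudocount of 5 FPKM, Dpt was at an adjusted p of 0.13 and Tnxb at 0.052.

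Anxa3 had 33.1, 33.7 and 31.9 FPKM in CAR wt and 23.7, 24.9 and 26.9 in CAR ko (log2 fold change -0.38, SE 0.07, adjusted p = 0.0015). All 15 tested neutrophil markers were called lower in CAR ko libraries, with a median of -1.19, and their part in the Anxa3 value was not tested. Pcolce2 was low, with 3.60, 3.58 and 3.76 FPKM in wt and 2.60, 2.92 and 3.09 in ko (-0.27, SE 0.08, adjusted p = 0.031). Pi16 had 1.56, 3.28 and 2.83 FPKM in wt and 1.64, 1.17 and 1.45 in ko, groups that overlapped through wt replicate 1 (-0.53, SE 0.16, adjusted p = 0.048). Neither of these last 2 calls was firm: that of Pi16 was lost without any single CAR library except wt replicate 1 (adjusted p = 0.058 to 0.19). The call of Pcolce2 was lost without any single CAR library except ko replicate 3 (0.054 to 0.11), and with only the CAR groups fitted (0.28).

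Mfap5 and Clec3b were not called in CAR cells. Mfap5 had 6.11, 5.93 and 7.14 FPKM in wt and 6.69, 9.44 and 9.25 in ko libraries, which overlapped through ko replicate 1 (log2 fold change 0.34, SE 0.11, adjusted p = 0.057). Without that library the value was 0.49 (adjusted p = 0.0040), and without wt replicate 3 it was 0.42 (adjusted p = 0.045). Clec3b had 0.416, 0.576 and 1.19 FPKM in wt and 0.566, 1.93 and 1.20 in ko (0.35, SE 0.19, adjusted p = 0.28), and without ko replicate 1 it was called at 0.58 (adjusted p = 0.043). Opcml was listed at 0 in all CAR libraries but ko replicate 3, which had 0.0208 FPKM.

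Ly6a was itself higher in CAR ko than in CAR wt libraries, at 8.82 ± 3.01 against 4.66 ± 0.815 FPKM (log2 fold change 0.76, adjusted p = 0.0042), and Cd34 was lower, at 8.59 ± 1.13 against 13.9 ± 2.35 (-0.63, adjusted p = 8.4e-04). Summed over Ly6a, Cd34, Thy1 and Pdgfra, CAR wt libraries had 73.8 to 79.1 FPKM and those of CAR ko cells 81.0 to 84.3 FPKM. Most of this sum was Pdgfra, the receptor used to sort both populations, with means of 57.9 FPKM in CAR wt and 64.9 in CAR ko. The mean of Thy1 was 0.603 FPKM in CAR wt and 0.287 in CAR ko libraries. Of 10 tendon and joint markers, 7 rose in CAR ko cells and 0 fell, Cilp from 121 ± 6.87 to 348 ± 9.33 FPKM, and of 10 osteoblast markers 9 rose. Other lists were lower: 6 of 10 CAR cell markers fell (Adipoq, Kitl, Foxc1, Cxcl14, Agt and Cbln1) and 0 rose, as did 9 of 9 tested pan-leukocyte and lymphoid markers, 8 of 10 erythroid markers and 5 of 10 monocyte and macrophage markers. Of 9 tested chondrocyte markers 3 rose and 4 fell. Of 10 endothelial markers 4 were higher and 1 was lower in CAR ko libraries at an unadjusted p under 0.05 by limma. The share of all genes at that threshold was not computed. Summed over these 10 endothelial markers, CAR wt libraries had 25.9 to 28.2 FPKM and CAR ko libraries 32.6 to 36.5 FPKM. The part of any of these cells in the values of the 9 genes was not tested.

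**Figure D4:**
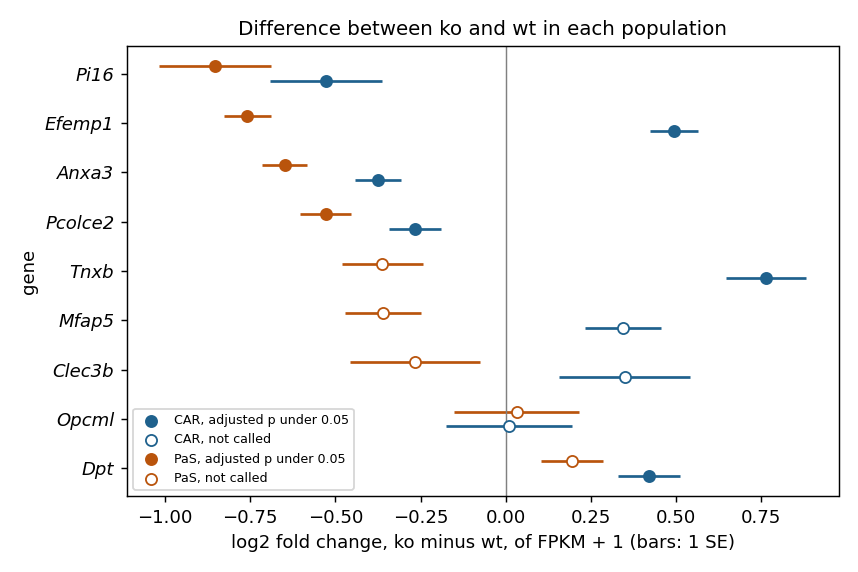
Log2 fold change between ko and wt libraries of each gene in CAR (blue) and PaS cells (orange) on the log2(FPKM + 1) scale, with bars of 1 SE and filled points for an adjusted p under 0.05. Efemp1 is called in opposite directions, at 0.49 in CAR and -0.76 in PaS cells, while Pi16, Anxa3 and Pcolce2 are lower in both.

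Whether the ko effect differed between the 2 populations was tested as an interaction, the effect in PaS minus the effect in CAR cells. Efemp1, Tnxb and Mfap5 differed, all 3 with a lower effect in PaS cells, where 3.32% of all genes were called in that direction and 3.26% in the other. Efemp1 had the largest difference of the 9, at -1.25 (SE 0.10, adjusted p = 1.5e-06): the PaS to CAR ratio of its means was 3.27 in wt and 1.36 in ko cells. Tnxb had -1.13 (SE 0.17, adjusted p = 6.9e-04), with a drop in PaS that was not called and a rise from under 1 FPKM in CAR cells. The size of this Tnxb value depends on the pseudocount: it was -2.17 with 0.1 FPKM and -0.53 with 5 FPKM, called in both, and the effect in CAR cells was 1.80 and 0.22. Mfap5 had -0.71 (SE 0.16, adjusted p = 0.014) although neither of its separate effects was called, and without a filter on low values this was at 0.059. For the other 6 no difference between the populations was shown. Their values ran from -0.62 for Clec3b (SE 0.27, adjusted p = 0.22) to 0.02 for Opcml (SE 0.26, adjusted p = 0.98), and the smallest adjusted p among them was that of Anxa3 (-0.27, SE 0.09, adjusted p = 0.11). With a pseudocount of 5 FPKM, which compresses the low CAR values, Pi16 was called at -0.61 (adjusted p = 0.028) and Pcolce2 at -0.39 (adjusted p = 0.014). The ratio of means, ko over wt, was nearly the same for Pi16 in PaS (0.557) and CAR cells (0.555). For Pcolce2 it was 0.693 and 0.787. Without CAR ko replicate 1 Clec3b was called at -0.85 (adjusted p = 0.045).

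The wider adventitial programme was read from 32 other genes known from such fibroblasts, among them Ly6a and Cd34. In wt cells 29 of 32 were higher in PaS and 1 was lower, with a median log2 fold change of 3.77. The smallest p-values were those of Cd248 (5.81), Igfbp6 (4.79), Nov (5.74) and Fbln2 (5.08), which encode a surface sialomucin, an IGF-binding protein, a matricellular protein and a fibulin. In PaS ko libraries 19 of the 32 fell and 0 rose by limma at an adjusted p under 0.05, with a median of -0.49. At an unadjusted p under 0.05 by limma, 25 fell and 1 rose, and the share of all genes at that threshold was not computed. Pcsk6, a proprotein convertase, went from 135 ± 2.31 to 54.2 ± 4.38 FPKM (-1.31, adjusted p = 1.6e-08), and Ugdh, an enzyme that makes a precursor of hyaluronan, from 334 ± 9.44 to 189 ± 3.48 (-0.81, adjusted p = 6.2e-07). Smpd3, a sphingomyelinase, had -1.27 (adjusted p = 7.1e-07) and Gfpt2, an enzyme of hexosamine synthesis, -0.86 (adjusted p = 1.1e-05). Dpp4, a surface peptidase of the Pi16-positive state chosen here after its values were seen, went from 40.4 ± 0.572 to 18.6 ± 1.16 FPKM (-1.08, adjusted p = 0.0023). Gsn, which encodes the actin-severing gelsolin, had a log2 fold change of 4.04 without a call (adjusted p = 0.40), and 1 PaS wt library lists it at 0.

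In CAR ko libraries 13 of the 32 rose and 5 fell, with a median of 0.14. Ackr3, a scavenger receptor for CXCL12, had 7.77 ± 1.14 FPKM in wt and 23.9 ± 3.17 in ko (log2 fold change 1.51, adjusted p = 1.1e-07). Pcsk6 had 0.99 (adjusted p = 3.0e-07), Has1, a hyaluronan synthase, 1.00 (adjusted p = 2.0e-06) and Ugdh 0.52 (adjusted p = 5.3e-05). The interaction was called for 16 of the 32, all with a lower effect in PaS cells, including Pcsk6 at -2.30, Has1 at -1.85, Ackr3 at -1.89 and Ugdh at -1.34. The list was put together with earlier results of these libraries known, so its direction is no independent evidence.

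**Figure D5:**
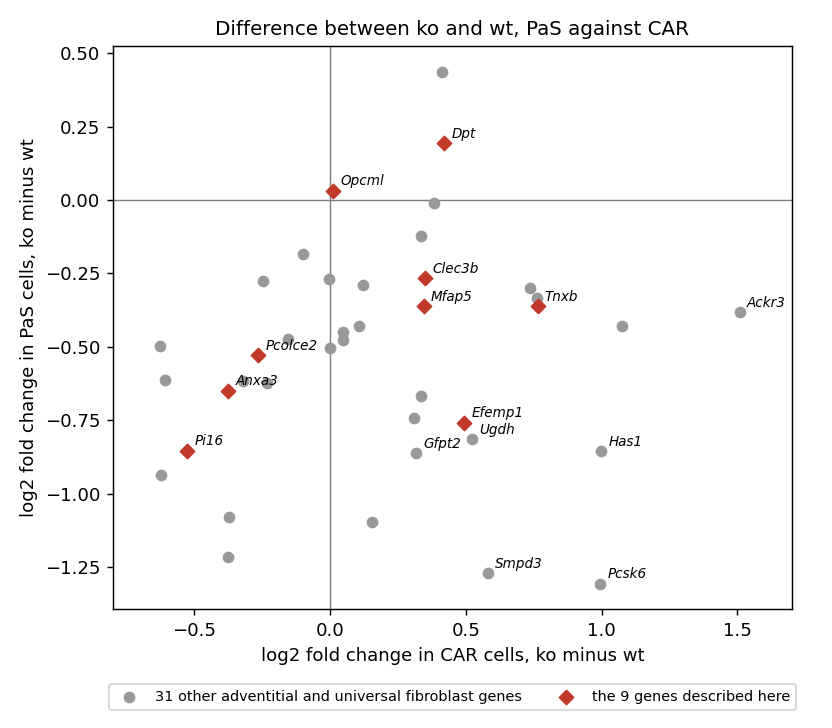
Log2 fold change between ko and wt in PaS cells (vertical) against that in CAR cells (horizontal) for the 9 genes (red diamonds) and 31 of the 32 other adventitial genes (grey; Gsn left out because a PaS wt library lists it at 0). Of the 9, Efemp1, Tnxb, Mfap5 and Clec3b lie at the lower right, with higher values in CAR ko and lower values in PaS ko cells. Only Efemp1 among them was called in both populations. Ugdh, Gfpt2, Has1, Smpd3, Pcsk6 and Ackr3 are labelled there too, among other grey points.

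The partners of the encoded proteins did not all follow. Of 17 microfibril and elastic fibre genes, which share Fbn1, Fbln2 and Emilin2 with the list above, 6 rose and 4 fell in PaS ko libraries (median 0.03). Mfap4 rose from 88.5 ± 4.38 to 183 ± 10.8 FPKM (1.04, adjusted p = 1.3e-05), Fbln1 rose by 0.46 (adjusted p = 4.3e-04) and Lox, which crosslinks elastin and collagen, by 0.38 (adjusted p = 7.7e-04). Fbn1, the fibrillin that Mfap5 binds, fell from 90.7 ± 2.03 to 58.6 ± 1.85 FPKM (-0.62, adjusted p = 9.8e-05). In CAR ko libraries 2 of the 17 rose and 4 fell, with Lox at 0.46 (adjusted p = 1.1e-04), Fbln1 at -0.32 (adjusted p = 0.0060), Loxl1 at -0.29 (adjusted p = 0.0032) and Fbln5 at -0.21 (adjusted p = 0.015).

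Of 14 fibrillar collagens and fibril-binding genes, 6 rose and 1 fell in PaS ko libraries (median 0.10). Fmod, fibromodulin, rose from 357 ± 16.6 to 649 ± 11.3 FPKM (0.86, adjusted p = 1.8e-07), Lum, lumican, by 0.54 (adjusted p = 1.4e-05) and Col12a1, a collagen on the fibril surface, by 0.57 (adjusted p = 8.6e-04), while Fn1, fibronectin, fell by 0.53 on the log2 scale (adjusted p = 0.0098). In CAR ko libraries 8 rose and 1 was lower (median 0.38), with Dcn, decorin, the binding partner of dermatopontin, at 0.79 (adjusted p = 3.2e-07), Lum at 0.77 (adjusted p = 3.3e-07), Fmod at 0.68 (adjusted p = 2.0e-06) and Col5a2 at 0.55 (adjusted p = 2.5e-05). The lower one is Col1a1, which 2 of the 3 CAR ko libraries list at 0. Of 6 tested genes of procollagen processing, 0 were called in PaS ko cells by limma and 2 had an unadjusted p under 0.05, Adamts3 in the upward and Pcolce in the downward direction. Pcolce is the paralog of Pcolce2 (-0.22, adjusted p = 0.063), and in CAR ko cells 1 rose, the proteinase gene Bmp1 (0.42, adjusted p = 3.9e-04).

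Paralogs of the 9 genes were read from a list of their own. Of 24 tested, 16 were higher and 6 lower in PaS wt than in CAR wt cells (median 0.73), among them the annexins Anxa8 at 3.27, Anxa2 at 2.02 and Anxa1 at 1.71. In PaS ko libraries 8 rose, 2 fell and 14 were not called (median 0.03). The 2 that fell were Anxa1 (-0.35, adjusted p = 6.5e-04) and Fbln2 (-0.43, adjusted p = 0.0050). Clec3a, the cartilage lectin related to Clec3b, rose from 16.6 ± 1.73 to 50.4 ± 6.51 FPKM (1.54, adjusted p = 1.6e-07), and Clec11a, a bone growth factor of the same family, rose by 0.72 (adjusted p = 1.3e-06). Crispld2, a CAP-family relative of Pi16, rose by 0.58 (adjusted p = 3.1e-04) and Tnn, tenascin-W, by 0.98 (adjusted p = 3.6e-04). In CAR ko libraries 7 rose and 3 fell (median 0.15), with Anxa8 at 1.25 (adjusted p = 1.0e-07), Clec3a at 1.24 (adjusted p = 1.5e-06), Clec11a at 0.57 (adjusted p = 1.5e-05) and Crispld1 at 0.86 (adjusted p = 2.6e-04).

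The genes most like each of these were ranked by Pearson's r of log2(FPKM + 1) over the 12 libraries, among 8525 genes with a mean of at least 5 FPKM. The libraries fall into a PaS and a CAR cluster, so r mostly measures this gap, and it is given as a description. Ly6a and Igfbp6 were among the 3 nearest genes of both Clec3b (0.999 for each after rounding) and Mfap5 (0.999 for each). The nearest gene of Pi16 was Tmod2 (0.999), of Dpt Dkk2 (0.998), of Pcolce2 Ssc5d (0.999), of Tnxb Tmem43 (0.998) and of Anxa3 Tns1 (0.994). Efemp1 was nearest to Ugdh (0.990) and Pcsk6 (0.989). For the mean of the 9 standardised genes the nearest were Nov (0.999), Cd248 (0.999), Ssc5d (0.998), Fbln2 (0.998) and Entpd2 (0.998).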

How the data were processed

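The authors deposited 1 table of FPKM for each of the 12 RNA libraries; the unit is not in the file headers and was read from the tools and the values. The tools named are Cuffnorm 2.2.1, Cufflinks 2.2.1, TopHat2 2.0.14 and, for base calls, bcl2fastq 2.17.1.14, with the mm10 build, per the submitters' processing notes. Libraries were made with SMART-Seq v4 from oligo dT enriched RNA, per the labels' protocols. The annotation, filters and use of strand are not stated, so reads of overlapping genes cannot be told apart. Among such overlaps are Tnxb with a Cyp21a2 pseudogene, Pcolce2 with an Itpa pseudogene, and Opcml, Dpt or Pi16 with lncRNAs. The 8 ATAC-seq samples were not analysed here.

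Groups were taken from the sample titles. The 12938 genes with 3 or more of the 12 libraries at 1 FPKM or above were fitted as log2(FPKM + 1) in a 4-group model with limma 3.58.1 in R 4.3.3 (8 residual and 6.95 prior degrees of freedom, variance trend). Calls were made at a two-sided Benjamini-Hochberg adjusted p under 0.05 over all of them, and fold changes on this scale understate low genes. Depth is not given, so no counting interval was computed. Python 3.11.15 with pandas 2.3.3 and matplotlib 3.10.9 made summaries and figures. The genes and lists were chosen with earlier results of these data known. Named genes were the 9, the 4 of smallest p in each related list and contrast, the nearest genes by correlation, and checks of labels and gates; some are not described. Alternatives were pseudocounts of 0.1 and 5, no filter or 5 FPKM, quantile or median-ratio scaling, library weights, only the compared groups, the replicate number as a block, each library left out, and zeros beside 100 FPKM in the same group set to missing.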

Additional observations from a re-analysis of the deposited data

Results flagged for a closer look

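Efemp1 differed between the populations in its ko effect, by -1.25 on the log2 scale in PaS minus CAR cells (adjusted p = 1.5e-06, limma). It was higher in 3 of 3 CAR ko libraries than in any CAR wt library and lower in 3 of 3 PaS ko libraries than in any PaS wt library. Tnxb differed by -1.13 (adjusted p = 6.9e-04), with the same separation of libraries in both populations, at 0.179 to 1.31 FPKM in CAR cells. Mfap5 differed by -0.71 (adjusted p = 0.014), lower in 3 of 3 PaS ko libraries and with overlapping CAR libraries.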

How the results depend on the processing

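In both comparisons of PaS with CAR cells, each of the 9 genes kept its direction and call under every alternative in which it passed the filter. In PaS ko against wt, the calls of Pi16, Efemp1, Anxa3 and Pcolce2 held under all 16 alternatives, with Pi16 between -0.94 and -0.71. Of the 9, 6 were called in CAR ko against wt; with a pseudocount of 5 there were 2, Efemp1 and Anxa3, and with only the CAR groups fitted 3. For the difference of effects 3 were called, and 5 with a pseudocount of 5; a larger pseudocount compresses the low CAR values. Values that changed sign were all uncalled: Dpt in the difference of effects was 0.019 with a pseudocount of 5 (adjusted p = 0.94). Opcml in PaS was -0.029 with library weights and -0.13 without PaS wt replicate 2, and in the difference of effects -0.042 and -0.14; over single libraries left out it ran from -0.13 to 0.073 and from -0.14 to 0.064. The replicate numbers were not shown to pair libraries: same-numbered libraries correlated in their deviations from the group means at -0.04 to 0.18. With the replicate number as a block, 1585 genes were called in CAR and 961 in PaS cells, against 1585 and 962. Of the 9, Pi16 in CAR was no longer called (adjusted p = 0.059), and Mfap5 was called in CAR (0.039) and in PaS (0.044). Read depth is unknown, which limits what can be said of Opcml, and of Tnxb and Clec3b in CAR cells.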
